A study of Mus musculus with 4 samples.

Results

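The 10 genes described here belong to the epithelial-mesenchymal transition (EMT) and were followed in cultured mouse liver cells: the cadherins Cdh1 and Cdh2, the transcription factors Snai1, Snai2, Zeb1, Zeb2, Twist1 and Grhl2, and the splicing regulators Esrp1 and Esrp2. They were chosen by name, and all 10 had a row among the 24493 gene symbols of the RNA sequencing table. The study compared hepatocytes in 3D culture (Hep_3D, n = 2) with biliary cells derived from hepatocytes in 2D culture (Bil_2D, n = 2), with no treatment. All libraries came from C57BL/6 hepatocytes, and each of the clones 15C7 (replicate 1) and 19H5 (replicate 2) gave a library in each state. Culture format and cell state went together in every library and cannot be told apart, and each clone is a single line. Below, the groups are called the hepatocyte cultures and the biliary cultures, values are given in the order clone 15C7, clone 19H5, and a single library is named by group and clone (Bil_2D 15C7). No label ties the libraries to donors or to separate experiments; p-values therefore measure the spread among these libraries only, and part of it may be technical.

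In an EMT, epithelial cells loosen their junctions and gain motility. E-cadherin, encoded by Cdh1, joins neighbouring epithelial cells and is linked to actin through catenins. Factors of the Snail, Zeb and Twist families bind E-box sequences and can repress it, and the loss of E-cadherin with a gain of N-cadherin (Cdh2) is known as the cadherin switch. Grhl2, Esrp1 and Esrp2 act on the epithelial side: Grhl2 is a transcription factor of epithelia, bile ducts among them, and the Esrp proteins drive epithelial exon choice. Hepatocytes are unusual among epithelia in carrying both E-cadherin and N-cadherin in the normal liver.

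Values are TPM, a length-corrected share of each library's transcripts that keeps no sequencing depth. Each library summed to 1000000 TPM, so the depth and counting error behind each value were unknown. The hepatocyte markers Alb, Ahsg, Ttr, Apoa1, Tat, Cps1, Cebpa and Hnf4a summed to 55230 and 53898 TPM in the hepatocyte cultures, against 1700 and 291 in the biliary cultures. Of 8 biliary markers 7 were tested, 3 fell and 1 rose, and on the size-factor scale 2 fell and 2 rose, so the list did not move as a whole. The keratin Krt19 fell from 752 and 1615 TPM in the biliary cultures to 1.12 and 15.9 in the hepatocyte cultures, while Spp1 (osteopontin) rose from 4176 and 6092 to 13093 and 9284 (adjusted p = 0.0359 in limma, or 0.0611 with clone as a replicate block). Spp1 made up most of the summed biliary markers, which were 5303 and 8393 TPM in the biliary cultures and 13161 and 9398 in the hepatocyte cultures. Epcam was at 2.59 TPM or less, and Cftr under 0.1 TPM, in every library. Across the 12336 genes tested the median log2 fold change was -0.73 on the TPM scale. The 50 most abundant genes of each library took 46.6% and 48.4% of TPM in the hepatocyte cultures against 22.4% and 24.8% in the biliary cultures. Each result is also shown after dividing TPM by median-of-ratios size factors, called the size-factor scale, where the median of all genes was -0.02. A log2 fold change is the mean of the hepatocyte cultures minus that of the biliary cultures, taken on log2(value + 1), which understates the change of low genes. A gene is said to rise or fall where limma gave it an adjusted p under 0.05, on TPM values unless the other scale is named.

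Both cadherins were lower in the hepatocyte cultures, and Esrp2 was higher. Of the 10 genes, 8 reached 1 TPM in 2 or more libraries and were tested; 4 fell (Cdh1, Cdh2, Snai2 and Zeb2), 1 rose (Esrp2) and 3 did not pass (Snai1, Zeb1 and Twist1). Over all genes tested, 51.9% were called lower and 6.80% higher on this scale, so the 4 falls lie near the background share. On the size-factor scale Cdh2 was lower and Esrp2 higher, and the other 6 did not pass, where 9.54% of all genes were called lower and 11.9% higher. For the 8 genes together the median log2 fold change was -0.90, or -0.35 on the size-factor scale. Both hepatocyte cultures lay below both biliary cultures for 5 of the 8 genes, as for 71.9% of all genes tested, and above them for 1 gene, as for 11.1% of all genes. Esrp1 and Grhl2 were under the filter.

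**Figure D1:**
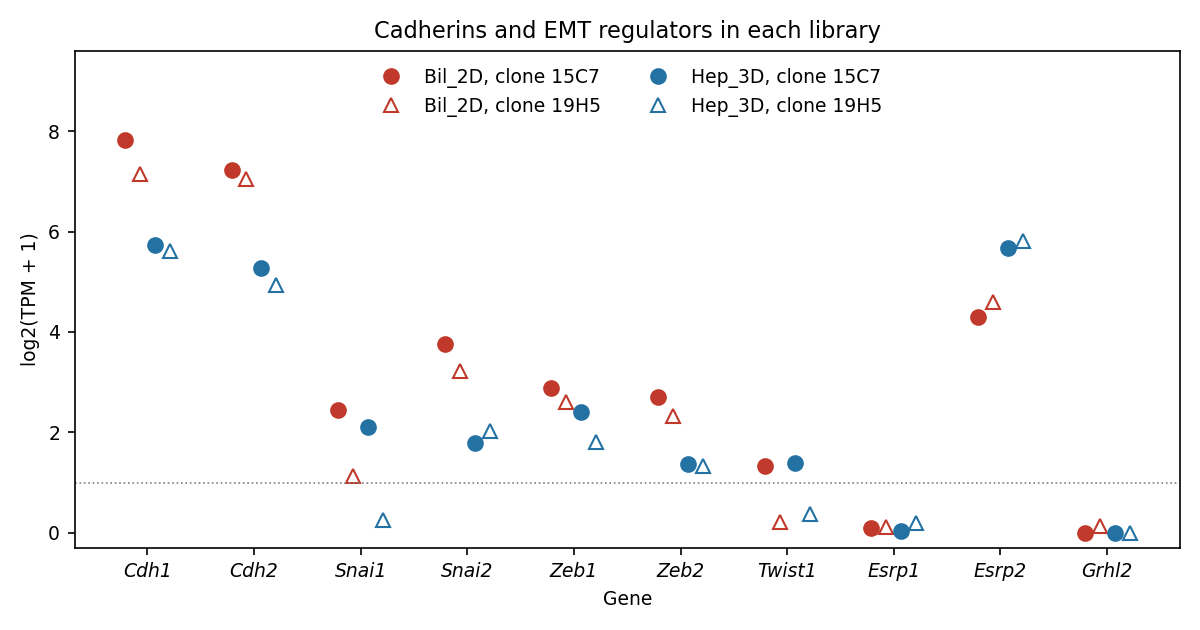
Level of each of the 10 genes in each library, as log2(TPM + 1); colour shows the group and the symbol shows the clone, and the dotted line is at 1 TPM. Both Bil_2D libraries lie above both Hep_3D libraries for Cdh1, Cdh2, Snai2, Zeb1 and Zeb2, the order is the opposite for Esrp2, and for Snai1 and Twist1 the symbols separate by clone.

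Cdh1, on chromosome 8 from 106603351 to 106670246 (mm10), had 226 and 140 TPM in the biliary cultures and 52.1 and 47.6 TPM in the hepatocyte cultures. The groups did not overlap, and the Bil_2D libraries differed from each other more than the Hep_3D libraries did. Cdh1 ranked 700 and 1082 among all genes of the table by TPM in the biliary cultures and 1871 and 1986 in the hepatocyte cultures, so it was an abundant transcript in every library. Its log2 fold change was -1.81 (SE 0.26, adjusted p = 0.00877 in limma), with -2.09 within clone 15C7 and -1.53 within clone 19H5. On the size-factor scale it was -1.01 and did not pass (adjusted p = 0.0535, or 0.0411 with clone as a replicate block), and on the TPM scale the call was lost without Hep_3D 19H5 (adjusted p = 0.0516).

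Cdh2 had 149 and 131 TPM in the biliary cultures and 37.5 and 29.7 TPM in the hepatocyte cultures. N-cadherin transcripts were thus lower in the hepatocyte cultures as well, with no overlap between groups. The log2 fold change was -2.03 (SE 0.17, adjusted p = 0.00513 in limma), and the clones gave -1.96 and -2.11. Cdh2 also fell on the size-factor scale (-1.23, adjusted p = 0.0159). On that scale the call was lost without Bil_2D 15C7, Bil_2D 19H5 or Hep_3D 19H5 (adjusted p = 0.109, 0.112 and 0.0643).

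The balance of the cadherins, which no scaling of a library alters, did not separate the states. Cdh1 exceeded Cdh2 in all 4 libraries, by a ratio of 1.51 and 1.06 in the biliary cultures and 1.39 and 1.60 in the hepatocyte cultures. The Hep_3D values lay between and just above those of Bil_2D, and the mean log2 ratio differed by 0.23 between groups, less than the difference between the Bil_2D libraries. Together Cdh1 and Cdh2 held 75.9% and 82.1% of the summed TPM of the 23 genes named Cdh with a number in the biliary cultures, and 64.6% and 84.2% in the hepatocyte cultures. On the TPM scale the level of both cadherins differed between states, and on the size-factor scale only Cdh2 passed. The order of the cadherins was the same in each library.

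Esrp2 moved the other way from Cdh1. Esrp2 lies on chromosome 8 from 106130319 to 106136974 (mm10), 466 kilobases before Cdh1. It had 18.5 and 23.0 TPM in the biliary cultures and 49.9 and 55.2 TPM in the hepatocyte cultures. The groups did not overlap, and each group's libraries lay close to each other. Esrp2 is known in the liver for an adult splicing programme of hepatocytes. The log2 fold change was 1.30 (SE 0.17, adjusted p = 0.00742 in limma), with 1.38 and 1.22 within clones 15C7 and 19H5, and 2.09 on the size-factor scale (adjusted p = 0.00849). On the size-factor scale the call was lost without Bil_2D 15C7, Bil_2D 19H5 or Hep_3D 19H5 (adjusted p = 0.0621, 0.0592 and 0.0562).

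Set against Cdh1 within the same library, the Esrp2 level was 0.0822 and 0.165 of that of Cdh1 in the biliary cultures, and 0.958 and 1.16 of it in the hepatocyte cultures. In rank, Esrp2 went from 6175 and 5251 among all genes in the biliary cultures to 1933 and 1729 in the hepatocyte cultures, close to the ranks of Cdh1 there. Esrp2 overlaps Nfatc3 by 219 bases and 1810019D21Rik by 1575 bases, both on the opposite strand, and the use of strand in the counting is not given in the sources used here. Nfatc3 had 14.4 and 15.1 TPM in the biliary cultures and 12.4 and 10.5 in the hepatocyte cultures. 1810019D21Rik had 5.03 and 5.96 TPM in the biliary cultures and 7.38 and 9.98 in the hepatocyte cultures. On TPM values neither passed in limma (adjusted p = 0.138 for Nfatc3 and 0.0896 for 1810019D21Rik, the latter 0.0484 with clone as a replicate block). Both hepatocyte cultures lay above both biliary cultures for 1810019D21Rik, as for Esrp2. The log2 size factors differed by -0.82 (Hep_3D minus Bil_2D), so the other scale moves both overlapping genes upward in the hepatocyte cultures. Whether reads of either gene entered the Esrp2 values was not tested.

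Esrp1, the paralog of Esrp2, had 0.0703 and 0.0859 TPM in the biliary cultures and 0.0215 and 0.142 TPM in the hepatocyte cultures. Grhl2 was listed at 0 in Bil_2D 15C7 and in both Hep_3D libraries and had 0.0944 TPM in Bil_2D 19H5. Neither epithelial regulator reached 1 TPM in either state. Both were far below Cdh1 in every library.

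**Figure D2:**
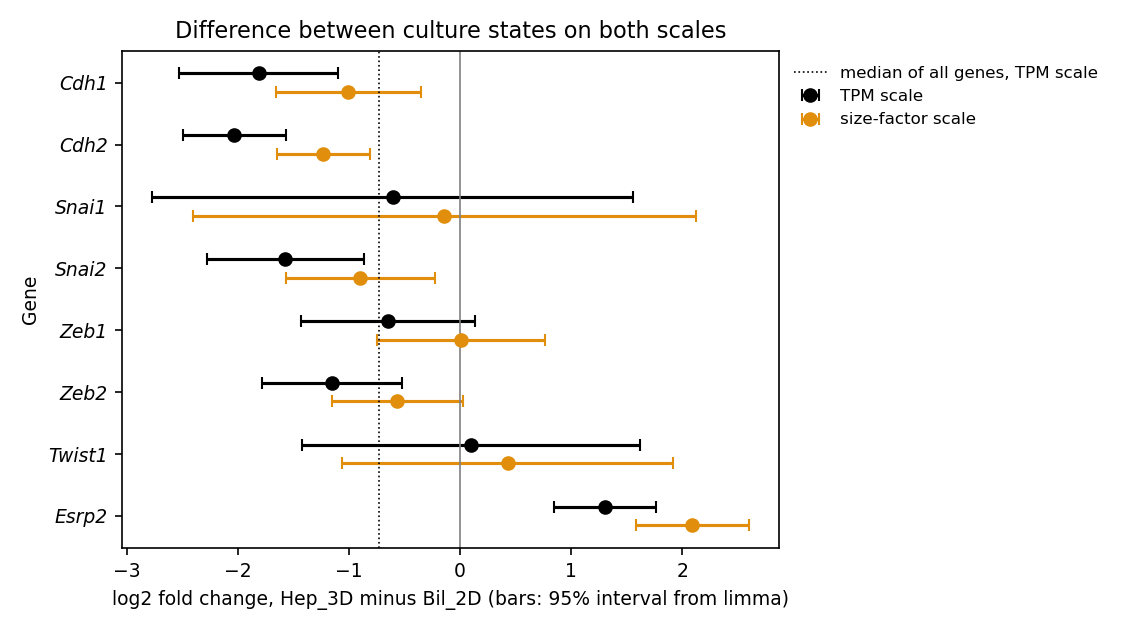
Log2 fold change of the 8 tested genes, Hep_3D minus Bil_2D, with 95% intervals from limma (n = 2 per group) on the TPM scale and the size-factor scale; the dotted line marks the median of all genes on the TPM scale, -0.73. Esrp2 lies to the right of 0 and Cdh2 to the left on both scales, and Zeb1 lies at -0.65 on the TPM scale and 0.01 on the other.

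The 5 EMT transcription factors Snai1, Snai2, Zeb1, Zeb2 and Twist1 were all low next to the cadherins, and on the size-factor scale limma called none of them in either direction. Snai2, the Slug factor of the Snail family (chromosome 16, 14705852 to 14709385), had 12.5 and 8.34 TPM in the biliary cultures and 2.48 and 3.07 TPM in the hepatocyte cultures. It was the most abundant of the 5 factors in both Bil_2D libraries, and its groups did not overlap. The log2 fold change was -1.58 (SE 0.26, adjusted p = 0.011 in limma) and -0.90 on the size-factor scale (adjusted p = 0.0719). Without Bil_2D 15C7 or Hep_3D 15C7 the TPM-scale call was lost (adjusted p = 0.0561 and 0.0555), as it was after quantile normalization (0.0551).

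Zeb2, a zinc finger repressor (chromosome 2, 44983632 to 45117395), had 5.54 and 3.98 TPM in the biliary cultures and 1.60 and 1.52 TPM in the hepatocyte cultures. The groups were apart, but the fall of -1.16 (SE 0.23, adjusted p = 0.0171 in limma) was -0.56 on the size-factor scale and did not pass there (adjusted p = 0.138). Leaving out any 1 of the 4 libraries lost the call (adjusted p from 0.0515 to 0.0795), and the adjusted p was 0.0976 after quantile normalization and 0.0733 without the 50 most abundant genes. Zeb2 overlaps the antisense gene Zeb2os, which had at most 0.943 TPM in any library. Its relative Zeb1 had 6.43 and 5.10 TPM in the biliary cultures and 4.30 and 2.48 TPM in the hepatocyte cultures. For Zeb1 the log2 fold change was -0.65 (95% interval -1.43 to 0.14, adjusted p = 0.118 in limma) and 0.01 on the size-factor scale (interval -0.74 to 0.77). The ratio of Zeb1 to Zeb2 within a library was 1.16 and 1.28 in the biliary cultures and 2.68 and 1.63 in the hepatocyte cultures, so Zeb1 exceeded Zeb2 in each library and by more in the hepatocyte cultures.

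The values of Snai1 and Twist1 lay apart by clone and overlapped between states. Snai1, the Snail repressor of Cdh1, had 4.45 TPM in the biliary and 3.31 TPM in the hepatocyte culture of clone 15C7, against 1.19 and 0.194 TPM in those of clone 19H5. Twist1, a basic helix-loop-helix factor of mesenchyme, had 1.53 TPM in the biliary and 1.62 TPM in the hepatocyte culture of clone 15C7, against 0.161 and 0.289 TPM in those of clone 19H5. For both genes the states overlapped, and both libraries of clone 19H5 lay below both of clone 15C7, as they did for 8.70% of all genes tested. Twist1 reached 1 TPM in the clone 15C7 libraries only, so its order by clone was not independent of the filter. The state difference of Snai1 was -0.61 (95% interval -2.77 to 1.56, adjusted p = 0.543 in limma) and that of Twist1 was 0.10 (interval -1.42 to 1.62, adjusted p = 0.89), intervals too wide to show that the states were alike. The sign of each depended on which library was left out.

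A limma fit with terms for clone and cell state compared the clones, on 1 residual degree of freedom. Snai1 was lower in clone 19H5 by a log2 fold change of -1.58 (SE 0.23, unadjusted p = 0.00489, adjusted p = 0.264), and Twist1 by -1.07 (SE 0.20, unadjusted p = 0.00969, adjusted p = 0.3). Neither passed, and limma called 0 of the 12336 genes between the clones, while 1599 (13.0%) had an unadjusted p under 0.05. Twist1 entered the test only through the clone where it was high. Its clone difference and p-value are therefore a description and no support for a clone effect. The other 6 tested genes had clone differences from -0.44 (Zeb1) to 0.22 (Esrp2), with adjusted p from 0.442 to 0.815. Each of the 8 tested genes had the same sign of the state difference in both clones on the TPM scale. On the size-factor scale Snai1 stood at 0.32 in clone 15C7 and -0.60 in clone 19H5, and Zeb1 at 0.21 and -0.18.

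**Figure D3:**
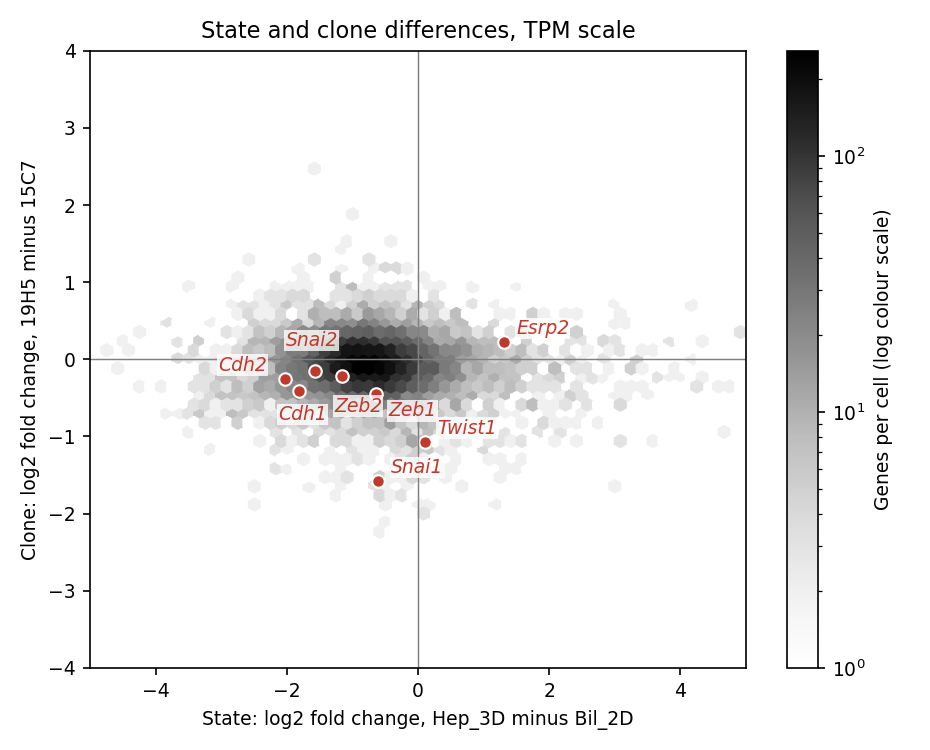
State difference (Hep_3D minus Bil_2D, x axis) against clone difference (19H5 minus 15C7, y axis) as log2 fold changes on the TPM scale; grey cells count 12195 tested genes, 141 genes lie outside the axes, and the 8 tested EMT genes are in red. Snai1 and Twist1 lie lowest on the clone axis at -1.58 and -1.07, and Cdh1, Cdh2 and Esrp2 are spread along the state axis.

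RefSeq promoter sequences (GRCm38.p6) were at hand for 3 of the 10 genes: Snai1, Twist1 and Zeb2, the last with 4 start sites. The windows of Snai1 and Twist1 are shown because these genes shared a clone pattern. Each is the 250 bases before the start, on the plus strand, chr2:167537945-167538194 for Snai1 and chr12:33957421-33957670 for Twist1, and capitals mark the E-box that Snail and Zeb factors bind, searched as CACCTG and its reverse complement CAGGTG.
Snai1: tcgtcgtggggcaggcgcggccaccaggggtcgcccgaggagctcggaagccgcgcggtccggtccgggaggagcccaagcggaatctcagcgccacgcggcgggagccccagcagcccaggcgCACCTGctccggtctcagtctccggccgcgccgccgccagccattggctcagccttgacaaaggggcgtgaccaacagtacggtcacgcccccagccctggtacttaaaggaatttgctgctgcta
Twist1: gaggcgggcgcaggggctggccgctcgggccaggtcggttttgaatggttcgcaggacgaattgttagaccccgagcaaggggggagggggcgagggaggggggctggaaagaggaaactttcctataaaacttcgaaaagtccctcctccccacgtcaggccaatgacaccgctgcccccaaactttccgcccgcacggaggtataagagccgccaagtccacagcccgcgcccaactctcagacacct
The Snai1 window held 1 E-box of this form, 126 to 121 bases before the start, and the Twist1 window held 0, as did each of the 4 Zeb2 windows. Of all 32851 windows of this length, 17.2% held at least 1. A match is a description of the letters and no evidence of binding.

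Transcripts of most other cadherins and catenins tested were lower in the hepatocyte cultures, as those of Cdh1 and Cdh2 were. Of 13 other cadherins and catenins, 9 were tested, 7 fell and 1 rose, against 51.9% lower and 6.80% higher over all genes tested. Their median log2 fold change was -1.62 against -0.73 for all genes. On the size-factor scale the median was -0.83 against -0.02. There 5 fell and 0 rose, against 9.54% lower and 11.9% higher over all genes. Leaving out any 1 of the 4 libraries took that count of 5 to 0. Cdh6 (K-cadherin) had 88.0 and 43.4 TPM in the biliary cultures and 8.18 and 4.81 in the hepatocyte cultures, and Cdh13, the cadherin anchored by a lipid tail, had 16.7 and 6.62 against 0.624 and 0.577. Both fell on both scales, and for Cdh13 the TPM-scale call was lost without either Hep_3D library (adjusted p = 0.0531 and 0.0571). Jup (plakoglobin) fell by 2.15 on the log2 scale and by 1.36 on the size-factor scale. Ctnnb1, the beta-catenin that binds E-cadherin, had 989 and 967 TPM in the biliary cultures and 221 and 246 in the hepatocyte cultures and was chosen after its values were seen. Cdh17, the liver-intestine cadherin, went the other way, with 2.36 and 0.529 TPM in the biliary cultures and 38.6 and 7.37 in the hepatocyte cultures. Its call (adjusted p = 0.0425 in limma) was lost on the size-factor scale (0.0519) and without Bil_2D 15C7, Bil_2D 19H5 or Hep_3D 15C7 (0.0927, 0.163 and 0.0944).

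Vimentin and several other mesenchymal effectors were lower in the hepatocyte cultures. On the TPM scale the list as a whole was called lower about as often as all genes. Of 15 listed, 9 were tested, 5 fell, near the background share of 51.9%, and 0 rose. Their median was -2.15, against -0.73 for all genes. On the size-factor scale 3 fell (median -1.58), or 0, 0, 3 and 2 without Bil_2D 15C7, Bil_2D 19H5, Hep_3D 15C7 and Hep_3D 19H5. For all genes on the size-factor scale, the share called lower was 9.54% and the median was -0.02. Vim, the intermediate filament vimentin, had 924 and 931 TPM in the biliary cultures and 81.0 and 44.9 in the hepatocyte cultures. It thus remained clearly present in the hepatocyte cultures. Sparc, a matrix glycoprotein, went from 21.5 and 16.2 TPM to 1.21 and 1.18, and the hyaluronan receptor Cd44 from 195 and 137 to 34.7 and 27.0. Without Bil_2D 19H5 the number that fell was 3. Fn1 (fibronectin, named after its values were seen) had 975 and 323 TPM in the biliary cultures and 1813 and 971 in the hepatocyte cultures. On TPM values Fn1 missed the threshold in limma (adjusted p = 0.157) and was called higher with clone as a replicate block (0.0204). On the size-factor scale its log2 fold change was 2.06 (adjusted p = 0.0827 in limma). There both hepatocyte cultures lay above both biliary cultures.

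The fibrillar collagen genes and the contractile gene Acta2 were near 0: no library had more than 1.17 TPM of Col1a1, 0.151 of Col3a1 or 0.209 of Acta2. Of 10 fibroblast and stellate markers 1 passed the filter, and their sum was 4.88 and 1.24 TPM in the biliary cultures and 180 and 3.65 in the hepatocyte cultures. In Hep_3D 15C7 most of this was Dcn (decorin), at 178 TPM. The 7 endothelial markers summed to 0.371 TPM at most, with Lyve1 and Emcn at 0 in all libraries, and the 7 macrophage and leukocyte markers to 3.62 to 14.1 TPM. Of 5 mesothelial markers, Msln had 324 and 828 TPM in the biliary cultures and 2.76 and 9.92 in the hepatocyte cultures, while Upk3b was at 0 in all libraries and the others stayed under 1 TPM. In bulk RNA, fewer cells of a type and less RNA per cell cannot be told apart.

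Ligands and mediators of TGF-beta signalling, which can induce the Snail and Zeb factors, were lower in the hepatocyte cultures. Of 9 genes tested, 8 fell and 0 rose (median -1.78), where 51.9% of all genes tested fell and 6.80% rose (median -0.73). On the size-factor scale 4 fell and 1 rose (median -0.98), where 9.54% of all genes fell and 11.9% rose (median -0.02). Tgfb3 went from 20.9 and 31.4 TPM in the biliary cultures to 0.306 and 0.380 in the hepatocyte cultures, and Tgfb2 from 33.1 and 15.9 to 1.14 and 0.719. Smad3, a receptor-activated mediator, and Smad7, its inhibitory relative, fell by 2.80 and 3.34 on the log2 scale. These 4 passed on both scales. The number that fell was 5 without Bil_2D 15C7, 4 without Bil_2D 19H5 and 5 without Hep_3D 19H5. The gene called higher on the size-factor scale was the receptor Tgfbr1, at 34.9 and 34.5 TPM in the biliary cultures and 32.5 and 28.0 in the hepatocyte cultures (log2 fold change 0.60 there, adjusted p = 0.0486, against -0.19 on TPM values), named after its values were seen. Its call was lost with the replicate block and without any 1 library. The 4 lower on the size-factor scale became 1, 0, 2 and 2 without Bil_2D 15C7, Bil_2D 19H5, Hep_3D 15C7 and Hep_3D 19H5.

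Other transcription factors tied to EMT were mostly absent. Of 10 listed, 4 were tested and 2 fell (median -1.29; 1 fell on the size-factor scale, median -0.71, and 0 with any 1 library left out), and Gsc was at 0 in all libraries. The 2 falls among 4 tested lie near the background share, 51.9% of all genes tested (9.54% on the size-factor scale). Sox4, a SOX factor active in TGF-beta driven EMT, had 325 and 166 TPM in the biliary cultures and 47.4 and 37.5 in the hepatocyte cultures. It was more abundant than any of the Snail, Zeb and Twist genes. It fell on both scales (adjusted p = 0.00922 and 0.0404), and Tcf3, which encodes E-box binding E proteins, fell on the TPM scale only (0.0101 and 0.0893). Without Hep_3D 19H5 neither passed (adjusted p = 0.0546 and 0.0562). Tcf4 had 3.03 and 1.91 TPM in the biliary cultures and 2.02 and 1.47 in the hepatocyte cultures (adjusted p = 0.347).

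Other transcription factors of epithelia were partly present. Of 11 other epithelial transcription factors, 6 were tested, 3 fell and 0 rose (median -0.94), against 1 lower and 1 higher on the size-factor scale (median -0.21), and 0 in either direction there with any 1 library left out. Over all genes tested 51.9% fell and 6.80% rose (median -0.73), so the counts of this list lie near the background share. On the size-factor scale 9.54% of all genes fell and 11.9% rose (median -0.02). Klf5 and Klf4, zinc finger factors of epithelia, fell by 1.28 and 1.26 on the log2 scale. Neither passed on the size-factor scale (adjusted p = 0.234 and 0.36). Klf4 and Klf5 lost their TPM-scale calls without either Bil_2D library, Klf4 also without Hep_3D 15C7 and Klf5 also without Hep_3D 19H5, so 1 gene of the list fell without either Bil_2D library. Elf3 had 11.1 and 8.26 TPM against 6.01 and 5.67 (adjusted p = 0.0604, and 0.0457 with the replicate block). The ETS factor Ehf, named after its values were seen, had 5.51 and 7.47 TPM in the biliary cultures and 9.61 and 10.9 in the hepatocyte cultures and was the gene higher on the size-factor scale (adjusted p = 0.0285). On TPM values its adjusted p was 0.0712, or 0.0423 with the replicate block. Grhl1 stood at 1.93 to 2.11 TPM in all 4 libraries while Grhl3, like Grhl2, stayed under 1 TPM.

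The rise of Esrp2 was not shared by other splicing regulators of EMT. All 8 were tested, 7 fell and 0 rose (median -1.17), and 3 fell on the size-factor scale (median -0.38), or 0 with any 1 library left out. Over all genes tested 51.9% fell and 6.80% rose (median -0.73), so 0 of 8 rising lies near the background share. On the size-factor scale 9.54% of all genes fell and 11.9% rose (median -0.02). Rbm47, an epithelial RNA-binding protein, had 73.4 and 83.1 TPM in the biliary cultures and 14.2 and 18.3 in the hepatocyte cultures. Hnrnpm, which competes with Esrp proteins for exons, had 242 and 243 against 66.1 and 69.4. Both fell on both scales, as did Ptbp1. Mbnl2 fell by 1.32 on the TPM scale only (adjusted p = 0.189 on the other). The number that fell was 3 without Bil_2D 15C7, 4 without Bil_2D 19H5 and 4 without Hep_3D 19H5.

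Of 8 genes known to carry Esrp-regulated exons, all were tested, 6 fell and 0 rose (median -1.09), with 3 lower on the size-factor scale (median -0.38; 0 to 1 with a library left out) and 3 lower on the TPM scale without either Bil_2D library. The receptor gene Fgfr2 went from 38.0 and 34.5 TPM in the biliary cultures to 3.40 and 7.53 in the hepatocyte cultures, and its call was lost without either Bil_2D library (adjusted p = 0.0529 and 0.0513). The actin regulator Enah and Ctnnd1 (p120 catenin) fell by 1.95 and 1.26 on the log2 scale, Ctnnd1 on the TPM scale only. Of all genes tested, 51.9% fell on the TPM scale (median -0.73) and 9.54% on the size-factor scale (median -0.02). A link of the falls in this list to Esrp2 was not tested. Values summed per gene cannot show which exons were used, so splicing itself was not measured here.

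**Figure D4:**
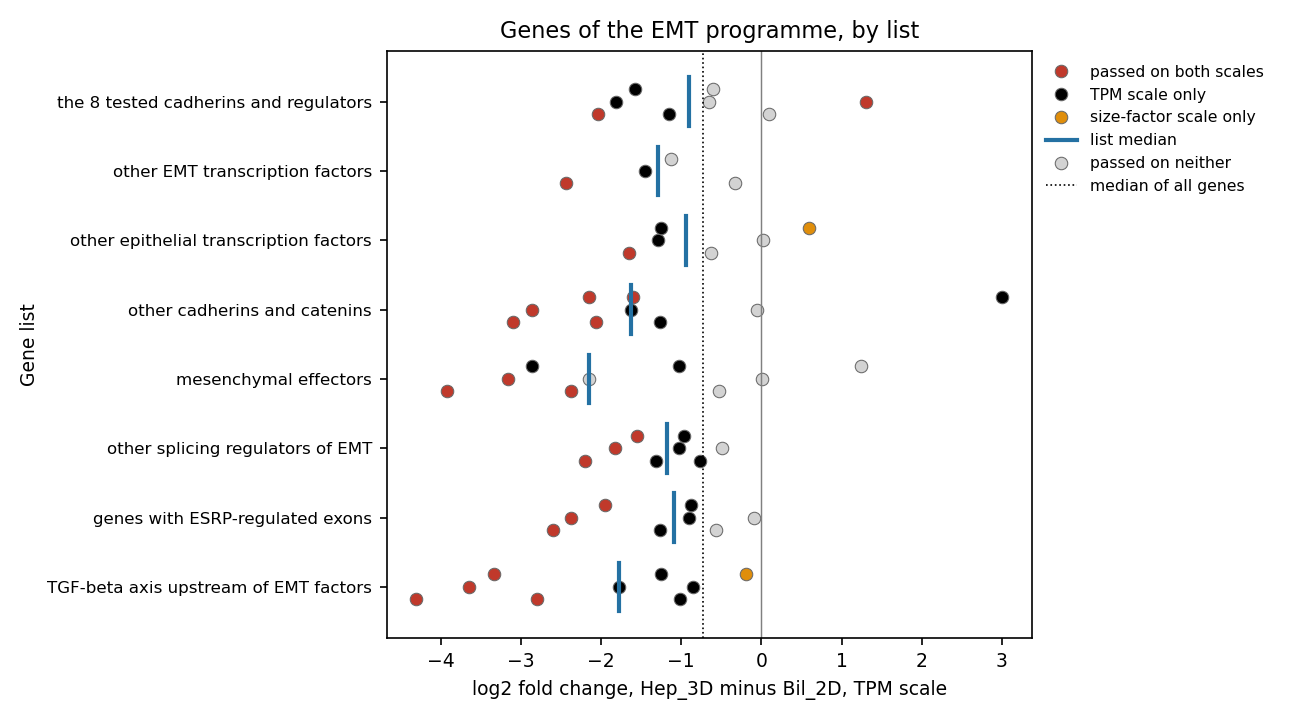
Log2 fold change (Hep_3D minus Bil_2D, TPM scale) of each tested gene by list; each point is a gene, colour shows on which scale limma's adjusted p was under 0.05, the blue bar is the list median and the dotted line is the median of all genes, -0.73. Esrp2 is the rightmost of the 8 tested cadherins and regulators, and the medians of all lists lie left of the dotted line.

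Many genes had level profiles like those of the cadherins over the 4 libraries. By Euclidean distance between centred log2(TPM + 1) profiles, the nearest to Cdh1 were Pdgfb, Smox and Plcd3 (0.0702, 0.0853 and 0.0912), and 378 genes lay within 0.5. The nearest to Cdh2 were Nfkb1, Acot7 and Ddx19a (0.0627, 0.07 and 0.1), and 540 genes lay within 0.5.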

How the data were processed

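RNA extracted with Qiagen RNeasy from 4 mouse cultures was sequenced, per the labels' protocols. Gene values are TPM as the authors deposited them, 1 row per gene symbol. Salmon, DESeq2 and mm10 appear in the submitters' processing notes, without versions or roles; the annotation and strand setting are not given in the sources used here. TPM keeps no depth, so no count model was fitted. Tested genes reached 1 TPM in 2 or more libraries. They were fitted on log2(TPM + 1) in R 4.3.3 with limma 3.58.1 (eBayes with trend; Benjamini-Hochberg over all genes tested; 2 residual degrees of freedom). The size-factor scale divided TPM by median-of-ratios factors computed from genes that reached 1 TPM in all 4 libraries. Clone numbers in the labels pair the libraries, and deviations from the group means correlated at 0.414 between libraries of the same clone. Gene positions are from GENCODE M21 on mm10. Alternatives were pseudocounts of 0.1 and 5, other filters and scalings, eBayes options, clone as a block, and leaving out each library, where the lone library of a group is assumed to vary like the other group. Fits on the size-factor scale with the block, or with a library removed, were added after seeing the data. Scripts were tested on simulated data. The genes and lists were chosen with earlier results of these data known. Named were the 10 genes, up to 4 tested genes of largest absolute log2 fold change in each of 7 lists, the 3 nearest profiles of each cadherin, and cell type markers. Some genes that this rule names are not reported here, though the counts of their lists include them.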

Additional observations from a re-analysis of the deposited data

Results flagged for a closer look

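Esrp1 went in opposite directions in the clones. On the log2(TPM + 1) scale Hep_3D minus Bil_2D was -0.067 in clone 15C7 and 0.073 in clone 19H5. All 4 libraries were under 0.15 TPM, and the difference between clones was not tested, since each clone had a single library in each state.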

How the results depend on the processing

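Counts over all genes moved with the scale. The number called higher was 839 on TPM values, 1465 on the size-factor scale, 1356 after quantile normalization and 1744 on the size-factor scale when clone was a block. The number called lower was 6402, and 1177, 1744 and 1449 under those settings, and 2215 without the 50 most abundant genes. Leaving out a library gave 434 to 595 higher and 2193 to 3950 lower on TPM values. On the size-factor scale, without Bil_2D 15C7, Bil_2D 19H5, Hep_3D 15C7 and Hep_3D 19H5, it gave 288, 168, 515 and 447 higher and 52, 20, 303 and 166 lower. Of the 8 tested EMT genes, 4 fell on TPM values, 1 on the size-factor scale, 2 after quantile normalization, 2 on the size-factor scale with the clone block, and 2 to 3 without a library. The size-factor leave-outs, in the same order, gave 0, 0, 1 and 0 lower and 0, 0, 1 and 0 higher. Fewer libraries enter each leave-out fit; otherwise the cause was not tested.

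Among the genes named by the rule, signs turned only where no call was made in either setting. Of the other listed genes, Tgfbr1 went from -0.19 on TPM values to a called 0.60 on the size-factor scale, and Celf1 from a called -0.77 to 0.034. Zeb1 was at 0.012 on the size-factor scale, with or without the block, and at 0.12 and 0.31 there without Bil_2D 15C7 and Hep_3D 19H5. Tcf4 was at 0.22 on the size-factor scale with or without the block, 0.14 after quantile normalization and 0.050 without the 50 most abundant genes. Elf3 was at 0.092 on the size-factor scale, with or without the block. Snai1 ranged from -1.53 to 0.32 over the TPM leave-outs and stood at 0.43 and 0.89 on the size-factor scale without Bil_2D 15C7 and Hep_3D 19H5. Twist1 ranged from -0.46 to 0.66, and stood at -0.030 and -0.15 on that scale without Bil_2D 19H5 and Hep_3D 15C7.

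On TPM values, pairing the libraries by clone as a block changed the call of none of the 8 genes. It added calls for Elf3, Fn1, Ehf, Dcn, Ttr and 1810019D21Rik, lost that of Spp1 and changed no other call of a gene named in the text. Cdh2 and Esrp2 kept direction and call under every alternative except 3 size-factor leave-outs each. The clone comparison called 0 genes under each of its 4 alternatives. The depth of the libraries is unknown, which limits values near 1 TPM.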
